A study of Gallus gallus with 9 samples.

Results

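Transcripts of 6 genes that act in the migration and survival of primordial germ cells were followed through all 9 libraries of the series: the chemokine receptor CXCR4 and its ligand CXCL12, the receptor tyrosine kinase KIT and its ligand KITLG, the sialomucin PODXL, and the fucosyltransferase FUT4. They were chosen by symbol from the deposited result tables, matched by gene identifier to the count tables, and all 6 were found among 24356 listed genes. Each symbol stood for 1 identifier. The series holds poly(A) RNA of chicken (Gallus gallus) primordial germ cells, the embryonic precursors of eggs and sperm, in 3 groups of 3 libraries: Lin28A knockout, Lin28B knockout, and cells with the normal genotype and a control vector. The labels state no age, clone, culture condition, method of disruption or disrupted part of either gene. Nor do they tell whether replicate libraries stem from different cultures, and a p-value then speaks only for the spread between libraries, which may be technical. LIN28A and LIN28B encode RNA-binding proteins that restrain the processing of let-7 microRNAs. The title of the series asks about the need of germ cells for them.

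Primordial germ cells arise away from the gonad and have to travel to it. In chicken they do so partly through the bloodstream. CXCR4 on the germ cell responds to CXCL12 made by the tissues along the way and at the gonad, and loss of this signal in model animals leaves germ cells astray. KIT on the germ cell binds KITLG on neighbouring somatic cells, a signal known from mouse to keep migrating germ cells alive. PODXL coats the cell surface with a charged, poorly adhesive glycoprotein, and FUT4 can add the fucose of the Lewis X sugar, an epitope used to recognise chicken germ cells.

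Germ cell identity was checked with 12 markers, among them DDX4, DAZL and the member KIT, all with counts above 0 in every library. Their summed level was 4116 to 4498 CPM (counts scaled to library size, with TMM factors between libraries) in LIN28A knockout, 4783 to 4989 CPM in the libraries labelled LIN28B knockout and 4748 to 4913 CPM in control. DAZL was the largest part of this sum in every library. In LIN28A knockout 6 of the 12 lay above and 6 below control, and in the libraries labelled LIN28B knockout 9 lay above and 3 below. Of the 12, edgeR called 0 in either knockout, while DESeq2 called PRDM14 higher in both (158 ± 6.23 CPM in LIN28A knockout, 158 ± 7.18 CPM in the LIN28B-labelled libraries and 118 ± 1.76 CPM in control) and DAZL lower in LIN28A knockout (1414 ± 84.1 CPM, against 1937 ± 152 CPM in control). The other markers with the smallest p, TDRD15, DND1 and TFAP2C, passed neither. Of all genes, DESeq2 called 2.46% in LIN28A knockout and 0.873% in the LIN28B-labelled libraries. Totals ran from 27.7 to 32.2 M counts per library, and 3 counts, the floor used here for counting error alone, stood for 0.0904 to 0.112 CPM. Replicates 1 and 2 of a group lay close together, with a root mean square log2 difference of 0.137 to 0.164 over 10151 genes, yet differed by more than counting noise (chi-square per degree of freedom at least 4.84). Replicate 3 differed from them by 0.716 and 0.729 in LIN28A knockout, and by 0.366 to 0.444 in the other groups. Replicates 1, 2 and 3 of LIN28A knockout kept LIN28A transcript at 72.8%, 76.2% and 7.28% of their same-numbered controls, which did not pass the test (log2 fold change −1.17 ± 0.53, SE; edgeR adjusted p = 0.479). LIN28B was not lower in the libraries labelled for its knockout (log2 fold change 0.05 ± 0.14; edgeR adjusted p = 0.929), and it averaged 40.0 ± 1.89 CPM in LIN28A knockout against 53.2 ± 8.30 CPM in control, lower in 3 of 3 libraries without passing (log2 fold change −0.41 ± 0.14; edgeR adjusted p = 0.327). The libraries with Lin28B in title and genotype have descriptions that point to the result table of the LIN28A comparison. Over 10151 genes, fold changes computed here for the same libraries differed from the authors' deposited LIN28B table by a median of 0.0059 on the log2 scale, and from their LIN28A table by 0.207, so the tables follow the titles. Since LIN28B was not lower, those libraries are called LIN28B-labelled, and any direction given for them rests on that label. The LIN28A transcript did not pass in its own knockout either, so the name LIN28A knockout rests on the label too. Whether either gene was disrupted was not tested.

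**Figure D1:**
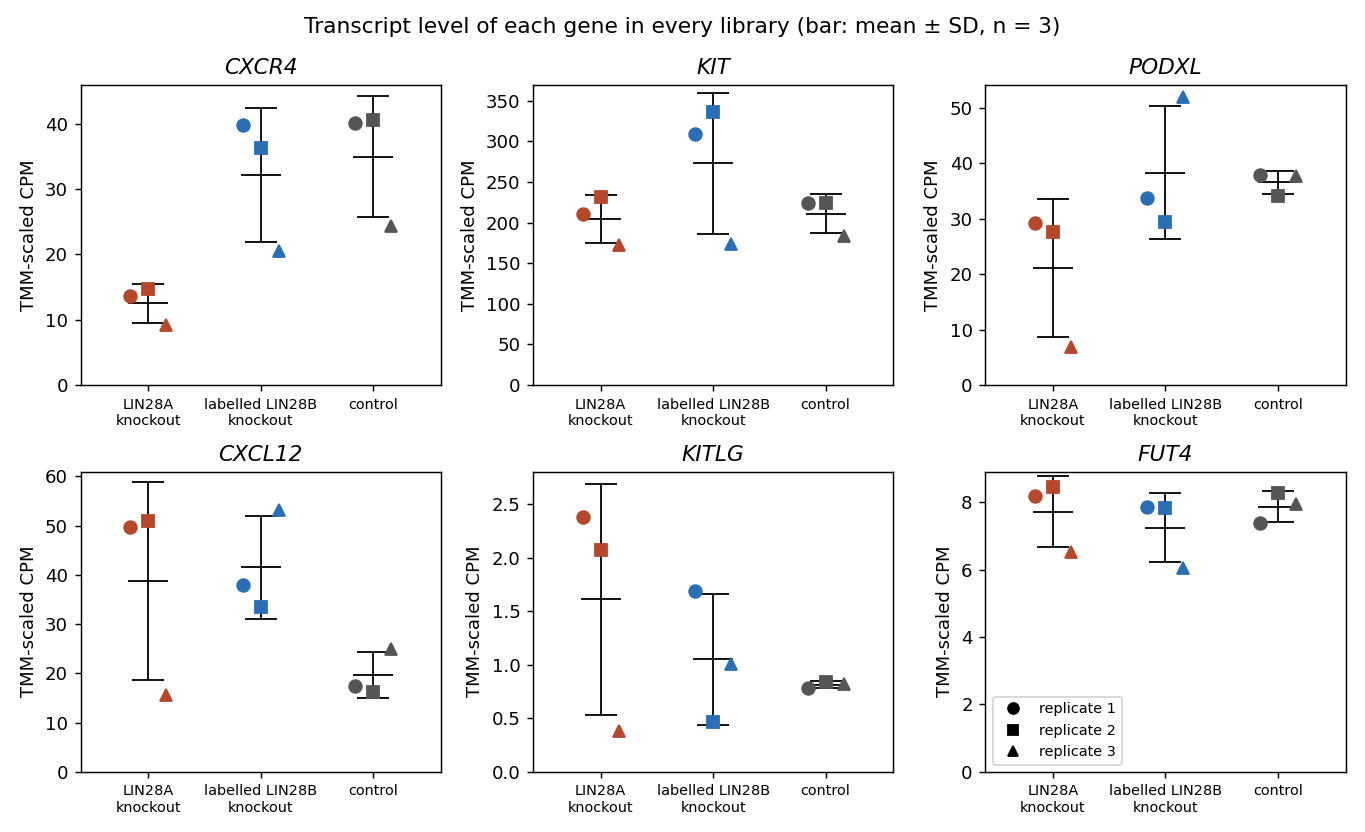
Level of each of the 6 genes in TMM-scaled CPM (vertical axis, linear from 0) in LIN28A knockout, in the LIN28B-labelled libraries and in control. Symbols mark replicates 1 to 3 and bars the mean ± SD of 3 libraries; CXCR4 at 9.16 to 14.7 CPM in LIN28A knockout lies below every other library, and replicate 3 of LIN28A knockout is the lowest library of its group for all 6 genes.

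Of the 6 genes, CXCR4 stood furthest from control in LIN28A knockout when all 9 libraries were used, and CXCL12 did so in the LIN28B-labelled libraries. Without LIN28A knockout replicate 3, KITLG (log2 fold change 1.45) and CXCL12 (1.36) stood further from control in LIN28A knockout than CXCR4 (−1.30). All 6 had at least 11 counts in every library and were tested. With edgeR's quasi-likelihood test on all 9 libraries, 0 of 6 were called in LIN28A knockout against control at an adjusted p under 0.05, where 0.00646% of 15475 tested genes were called, and 1643 (10.6%) had an unadjusted p under 0.05. Of the 6, 2 had such an unadjusted p in LIN28A knockout, CXCR4 and CXCL12. Likewise, 0 of 6 were called in the LIN28B-labelled libraries, against 0.0129% of the tested genes, and 1 of 6, CXCL12, had an unadjusted p under 0.05, against 8.87% of them. Library numbers were taken to pair each knockout with control, by a check that sets replicate 3 apart but does not distinguish replicate 1 from replicate 2. With the number as a block, edgeR called 1 of 6 in LIN28A knockout (CXCR4, with 0.0840% of all tested genes called) and 0 of 6 in the LIN28B-labelled libraries (0.155%). DESeq2 on all libraries likewise called CXCR4 alone in LIN28A knockout, where it called 2.46% of genes, and 0 of 6 in the LIN28B-labelled libraries, where it called 0.873%. In the authors' deposited tables, each made from 1 knockout and control, 1 of 6 was called in each comparison: CXCR4 in LIN28A knockout, against 1.91% of their genes, and CXCL12 in the table for LIN28B, against 4.60%. Because counts are not divided by transcript length here, levels are compared between libraries and not between genes.

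CXCR4 (ENSGALG00000012357), the receptor that steers germ cells along a CXCL12 gradient, was at 13.6, 14.7 and 9.16 CPM in replicates 1, 2 and 3 of LIN28A knockout. It was at 39.8, 36.3 and 20.5 CPM in the LIN28B-labelled libraries and at 40.0, 40.5 and 24.3 CPM in control. Every LIN28A knockout library lay below every other library, while the LIN28B-labelled libraries overlapped control. CXCR4 was 1 of 2 members whose LIN28A knockout and control libraries did not overlap with LIN28A knockout lower, a pattern shown by 9.78% of all tested genes. Means were 12.5 ± 2.96 CPM in LIN28A knockout, 32.2 ± 10.3 CPM in the LIN28B-labelled libraries and 35.0 ± 9.20 CPM in control (SD, n = 3 each), and the upper pair in this order did not differ beyond their spread. In bulk RNA, fewer cells with the transcript and less transcript per cell cannot be told apart.

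The log2 fold change of CXCR4 in LIN28A knockout was −1.48 ± 0.30 (SE), a level of 0.358 times control, with a 95% interval of −2.15 to −0.81 for this gene alone. This did not pass edgeR over all genes (adjusted p = 0.126, unadjusted p = 5.94e-04). Under the replicate block CXCR4 fell, by 1.47 ± 0.12 on the log2 scale (edgeR adjusted p = 0.0159). DESeq2 on all 9 libraries also called it (adjusted p = 4.40e-04), as did the authors' deposited table, at −1.47 ± 0.29 (adjusted p = 1.85e-04). Leaving out any 1 library kept the log2 fold change between −1.68 and −1.30, and edgeR called it in 0 of these 9 fits (adjusted p 0.0572 to 0.481). The block fitted replicate terms shared by all groups, so the LIN28B-labelled libraries entered it too, although no pairing was taken between the knockouts. The same-numbered pairs with control show part of what the block uses, though the pairing check does not tell replicate 1 from replicate 2. CXCR4 was lower in replicate 3 of every group, at 64.5%, 54.0% and 60.4% of the mean of replicates 1 and 2 in LIN28A knockout, in the LIN28B-labelled libraries and in control. Set against the control library with the same number, LIN28A knockout held 34.1%, 36.4% and 37.7%, a mean log2 ratio of −1.47 ± 0.07 (SD, n = 3 pairs). All 3 ratios of CXCR4 lay at or below 50%, as did those of 0.595% of the tested genes; this measure was chosen after the values were seen.

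CXCR4 in the LIN28B-labelled libraries reached 99.4%, 89.5% and 84.3% of the paired control library (log2 fold change −0.12 ± 0.29; edgeR adjusted p = 0.919). Its 95% interval ran from −0.77 to 0.53, so a difference as large as that in LIN28A knockout lay outside it. Without LIN28B-labelled replicate 3 the sign turned (log2 fold change 0.12). The difference between the knockouts was tested directly: LIN28A knockout minus the LIN28B-labelled libraries was −1.36 ± 0.30 on the log2 scale, below in 3 of 3 libraries, and did not pass edgeR (adjusted p = 0.0747), where 0.517% of genes were called. All LIN28A knockout libraries lay below all LIN28B-labelled libraries for 1952 of 15475 tested genes. With 1 library left out, edgeR called this CXCR4 difference in 1 of 9 fits (adjusted p 0.0332 to 0.315). The called fit was without LIN28B-labelled replicate 3. The difference was called when the 9 libraries were tested with DESeq2 instead (adjusted p = 9.14e-04). In this comparison DESeq2 called 577 of the 15475 tested genes higher and 427 lower, far more than edgeR.

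**Figure D2:**
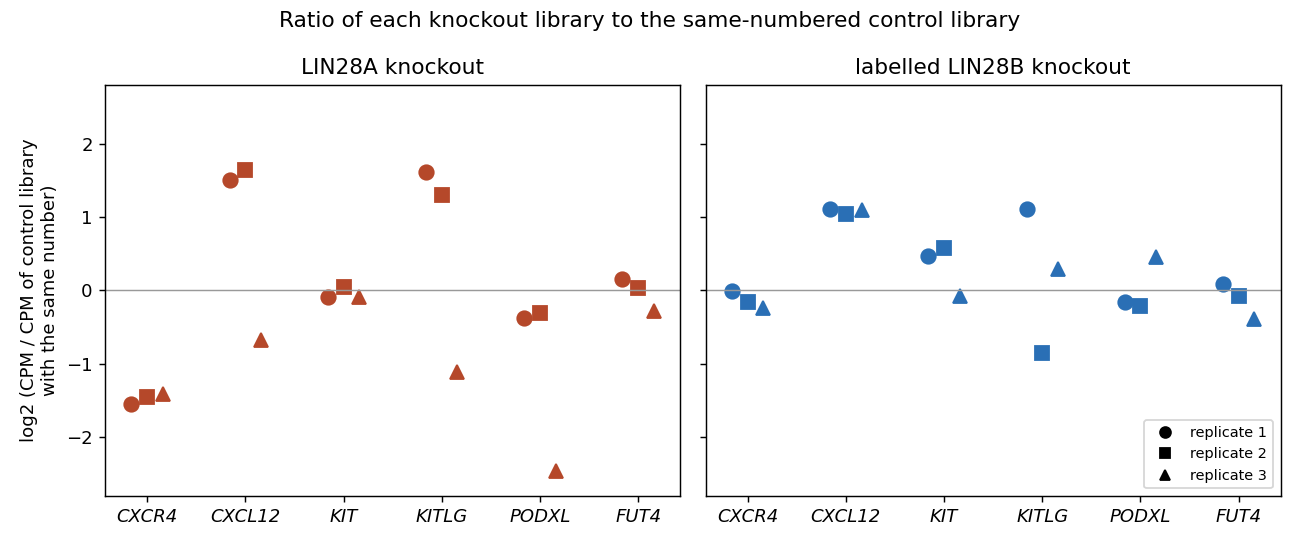
Log2 ratio of TMM-scaled CPM in each knockout library to the control library with the same number, for LIN28A knockout (left) and the LIN28B-labelled libraries (right); symbols mark replicates 1 to 3 and 0 is equality. CXCR4 in LIN28A knockout (34.1% to 37.7% of control) and CXCL12 in the LIN28B-labelled libraries (2.05 to 2.16 times control) have nearly the same ratio in all 3 pairs, while CXCL12, KITLG and PODXL in LIN28A knockout split between replicates 1 and 2 and replicate 3.

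CXCL12 (ENSGALG00000041346), the chemokine that CXCR4 responds to and a product mainly of stromal cells in the body, measured 49.7, 50.9 and 15.6 CPM in LIN28A knockout. It was at 37.8, 33.4 and 53.2 CPM in the LIN28B-labelled libraries and at 17.5, 16.3 and 25.0 CPM in control. All LIN28B-labelled libraries lay above all control libraries, as did those of 11.6% of tested genes, whereas LIN28A knockout was above control in replicates 1 and 2 and below it in replicate 3. The means were 38.7 ± 20.0 CPM in LIN28A knockout, 41.5 ± 10.4 CPM in the LIN28B-labelled libraries and 19.6 ± 4.70 CPM in control (SD, n = 3 each). The upper 2 of these, in the LIN28B-labelled libraries and LIN28A knockout, did not differ beyond their spread (log2 difference of LIN28A minus LIN28B-labelled libraries −0.10 ± 0.39; edgeR adjusted p = 0.916).

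Set against the control library of the same number, CXCL12 was 2.16, 2.05 and 2.13 times as high in the LIN28B-labelled libraries, a mean log2 ratio of 1.08 ± 0.04 (SD, n = 3 pairs). All 3 ratios were at least 2, as for 0.872% of the tested genes. This measure and its direction were chosen after the values were seen. The log2 fold change was 1.08 ± 0.39 (95% interval 0.21 to 1.96) and did not pass edgeR on all 9 libraries (adjusted p = 0.502), nor with the block (0.310), nor DESeq2 (0.192). It passed in the authors' deposited table, which left out LIN28A knockout (1.08 ± 0.24, adjusted p = 7.92e-04), and by edgeR when LIN28A knockout replicate 3 was left out of the shared fit (1.08, adjusted p = 0.0469; 1.05% of genes called). That library is in neither group of the comparison. Of the 9 fits with 1 library left out, edgeR called CXCL12 only in this 1 (adjusted p 0.0469 to 0.987 over the 9). EdgeR on only the groups compared, which also lacks LIN28A knockout, did not call CXCL12. Leaving out LIN28A knockout replicate 3 also changed the set of genes tested, to 15815, and what gave the call was not tested.

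In LIN28A knockout CXCL12 was at 2.84, 3.12 and 0.626 times the same-numbered control. The log2 fold change of 0.99 ± 0.39 averages these opposite values and did not pass (edgeR adjusted p = 0.416). Without LIN28A knockout replicate 3 it was 1.36 and passed (edgeR adjusted p = 0.0160), in a fit that called 2.86% of genes, and it ranged down to 0.74 with other libraries left out.

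Sums of fibroblast and endothelial markers moved with CXCL12 in some libraries. The 14 fibroblast markers summed to 810 to 1989 CPM in LIN28A knockout, with replicate 3 the lowest, to 1201 to 2144 CPM in the LIN28B-labelled libraries and to 1376 to 2092 CPM in control, and at most 1 of them was at 0 counts in a library. VIM, COL1A2 and COL3A1 made up most of this sum in every library. LUM, DCN, POSTN, TWIST1 and TAGLN each stayed at or below 6.62 CPM. Of 13 tested, 4 lay above and 9 below control in each comparison, and edgeR called 0. DESeq2 called 1 lower in LIN28A knockout (2.46% of all genes called) and 0 in the LIN28B-labelled libraries (0.873%). Single fibroblast genes differed in pattern. COL1A1, a fibroblast collagen, measured 590, 517 and 73.3 CPM in LIN28A knockout, 89.8, 95.3 and 54.1 CPM in the LIN28B-labelled libraries and 109, 102 and 49.6 CPM in control, so it was high where CXCL12 was high in LIN28A knockout. COL3A1, another collagen, did the reverse, with 230, 237 and 337 CPM in LIN28A knockout against 203, 215 and 199 CPM in control. VIM, an intermediate filament of mesenchymal cells, reached 540, 531 and 329 CPM in LIN28A knockout, below 769, 766 and 1082 CPM in control. POSTN, a matrix protein, reached 4.58, 6.12 and 0.551 CPM in LIN28A knockout, against 0.935, 0.323 and 0.597 CPM in control. In the LIN28B-labelled libraries these 4 genes had edgeR adjusted p from 0.595 to 0.988. COL1A2, a further collagen, measured 534, 551 and 37.5 CPM in LIN28A knockout. It was at 205, 158 and 720 CPM in the LIN28B-labelled libraries and at 221, 211 and 695 CPM in control. Like CXCL12, COL1A2 was thus lowest in replicate 3 of LIN28A knockout and highest in replicate 3 of the other groups. This order was not particular to COL1A2. VIM showed it too, with 773, 712 and 1103 CPM in the LIN28B-labelled libraries, and so did the LIN28A transcript. Unlike CXCL12, COL1A2 had LIN28B-labelled libraries that overlapped control, and it was picked after its values were seen.

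The 8 endothelial markers summed to 6.61 to 37.1 CPM in LIN28A knockout, again lowest in replicate 3, to 36.8 to 44.2 CPM in the LIN28B-labelled libraries and to 17.5 to 34.0 CPM in control. Like CXCL12, this sum was thus higher in every LIN28B-labelled library than in every control library. Of 6 tested, 2 lay above and 4 below control in LIN28A knockout and 6 above in the LIN28B-labelled libraries, with 0 called by edgeR in either. DESeq2 called 1 higher and 1 lower in LIN28A knockout (2.46% of all genes) and 0 in the LIN28B-labelled libraries (0.873%). PECAM1, an endothelial adhesion molecule, made up most of the sum, with replicate 3 of LIN28A knockout at 4.58 CPM, the lowest of the 9 libraries, and with 30.0, 38.7 and 32.9 CPM in the LIN28B-labelled libraries and 28.5, 26.2 and 15.0 CPM in control. ERG, an endothelial transcription factor, split in LIN28A knockout as CXCL12 did, with 7.74, 7.56 and 0.138 CPM against 0.343, 0.711 and 0.224 CPM in control. KDR, a receptor for vascular growth factor, held 0.783, 0.366 and 0.276 CPM in LIN28A knockout, below 3.49, 2.17 and 0.970 CPM in control. CDH5, a defining endothelial cadherin, had 0 counts in all LIN28A knockout libraries, 36, 22 and 0 counts in the LIN28B-labelled libraries and 9, 10 and 2 counts in control. TIE1 and VWF stayed at or below 1.04 CPM in every library. The 2 erythroid markers, TAL1 among them, summed to at most 0.895 CPM in any library and the 5 leukocyte markers to 15.0 to 28.2 CPM. In LIN28A knockout the leukocyte sum was 20.9, 22.4 and 28.2 CPM, highest in replicate 3, where CXCL12 was lowest. LCP1 made up most of that sum there. CD74 was also highest in replicate 3 (4.31, 3.72 and 4.75 CPM). PTPRC (3.86, 2.71 and 2.89 CPM), CD3E (0.964, 0.914 and 0.207 CPM) and CSF1R (0.211, 0.488 and 0.0689 CPM) were not. LCP1, an actin bundler of leukocytes, was the marker that edgeR called between the knockouts, with 11.6, 14.5 and 20.3 CPM in LIN28A knockout against 5.09, 5.30 and 6.08 CPM in the LIN28B-labelled libraries (log2 difference 1.49 ± 0.23; edgeR adjusted p = 0.0342). Of all tested genes, edgeR called 0.517% between the knockouts. The part of other cell types in the CXCL12 values was not tested.

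**Figure D3:**
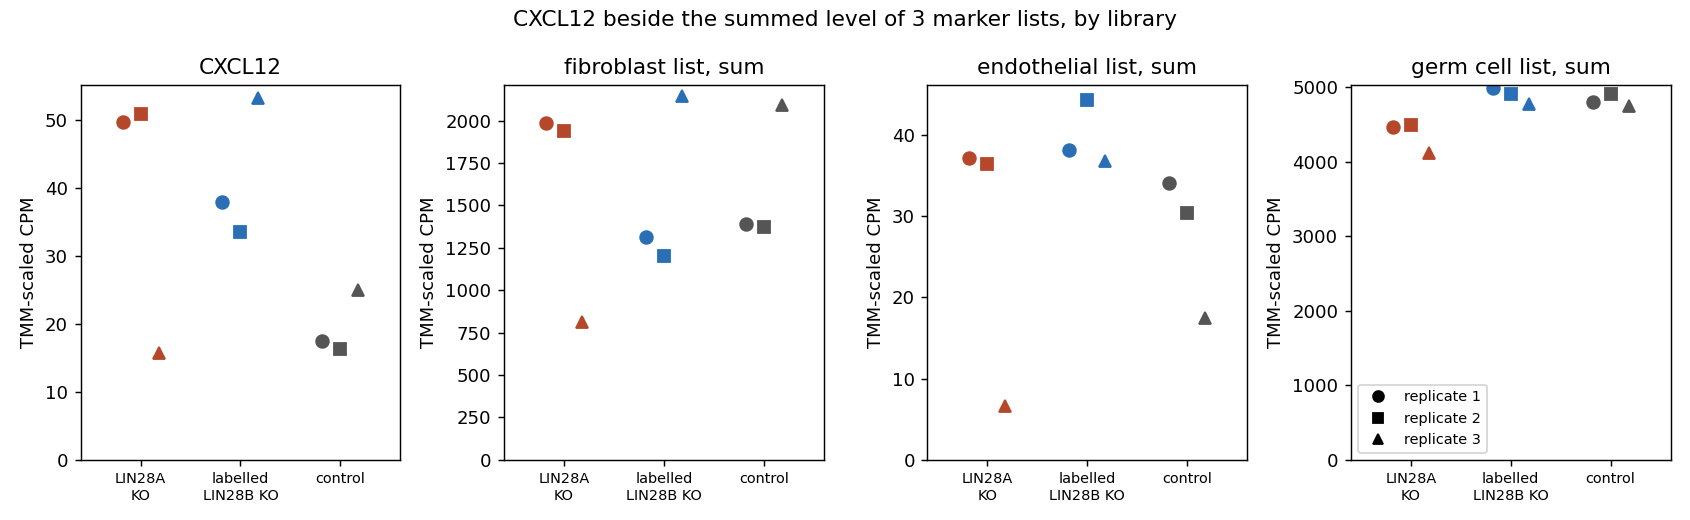
CXCL12 beside the summed TMM-scaled CPM of the fibroblast, endothelial and germ cell marker lists (vertical axes, linear from 0) by group, with symbols for replicates 1 to 3. In LIN28A knockout, replicate 3 is the lowest for CXCL12 (15.6 CPM) and for the fibroblast (810 CPM) and endothelial (6.61 CPM) sums, while in the LIN28B-labelled libraries CXCL12 and the endothelial sum are above every control library and the fibroblast sum overlaps control.

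Genes that carry the CXCR4 signal were described by a list of 30, of which 23 were tested. In LIN28A knockout 9 lay above and 14 below control (median log2 fold change −0.06), and in the LIN28B-labelled libraries 10 lay above and 13 below, with a median of −0.05. The medians over all tested genes were 0.02 and −0.00. EdgeR called 0 of the 23 in either comparison, with 5 and 1 below an unadjusted p of 0.05 (all tested genes: 10.6% and 8.87%). The 5 include the members CXCR4 and CXCL12 themselves, and the 1 is CXCL12. DESeq2 called CXCR4 in LIN28A knockout and 0 in the other. The inhibitory G protein subunit GNAI3, which couples to chemokine receptors, averaged 345 ± 20.4 CPM in LIN28A knockout, 362 ± 9.72 CPM in the LIN28B-labelled libraries and 408 ± 8.70 CPM in control, with log2 fold changes of −0.24 ± 0.09 and −0.18 ± 0.09 (edgeR adjusted p = 0.356 and 0.595). Its relative GNAI2 was at −0.17 ± 0.10 and −0.21 ± 0.10 (edgeR adjusted p = 0.572 and 0.576). ELMO1, a scaffold that activates Rac downstream of chemokine receptors, was at −0.39 ± 0.13 in LIN28A knockout (edgeR adjusted p = 0.335). GRK6, a kinase that desensitises receptors, was at 0.45 ± 0.21 in the LIN28B-labelled libraries (edgeR adjusted p = 0.576). The chemokine receptor CXCR1 was at 2.19 ± 1.15 CPM in LIN28A knockout, 1.68 ± 0.38 CPM in the LIN28B-labelled libraries and 1.68 ± 0.17 CPM in control. The other CXCL12 receptor, ACKR3, was not analysed here.

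KIT (ENSGALG00000038634), the receptor for the survival factor KITLG, measured 210, 231 and 172 CPM in LIN28A knockout, 309, 336 and 173 CPM in the LIN28B-labelled libraries and 224, 225 and 183 CPM in control. Replicate 3 was the lowest library in every group, and the groups overlapped in both comparisons. The means were 204 ± 30.0 CPM in LIN28A knockout, 273 ± 87.3 CPM in the LIN28B-labelled libraries and 211 ± 24.0 CPM in control (SD, n = 3 each). In the order of these levels no neighbours differed beyond their spread.

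KIT in LIN28A knockout stood at 93.7%, 103% and 94.0% of the paired control libraries (log2 fold change −0.04 ± 0.22, 95% interval −0.54 to 0.46; edgeR adjusted p = 0.968). The sign turned without control replicate 1 (0.0033), control replicate 2 (0.0052) or LIN28A knockout replicate 3 (0.067). KIT stood at 138%, 150% and 94.6% of control in the LIN28B-labelled libraries, so replicates 1 and 2 were higher and replicate 3 was not. Its log2 fold change was 0.37 ± 0.22 (95% interval −0.13 to 0.87; edgeR adjusted p = 0.650), and it was 0.61 without LIN28B-labelled replicate 3 and 0.19 without LIN28B-labelled replicate 2, with no call in either fit. With replicates 1 and 2 of every group KIT was called higher there (0.52 ± 0.05; edgeR adjusted p = 7.94e-09), in a fit that called 31.2% of all genes. LIN28A knockout against the LIN28B-labelled libraries gave a log2 difference of −0.42 ± 0.22 for KIT (edgeR adjusted p = 0.352).

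KITLG (ENSGALG00000011206), the membrane-bound or shed ligand of KIT, was scarce, with 11 to 79 counts per library. It measured 2.38, 2.07 and 0.379 CPM in LIN28A knockout, 1.69, 0.465 and 1.00 CPM in the LIN28B-labelled libraries and 0.779, 0.840 and 0.821 CPM in control. The control libraries lay within a narrow band, and each knockout had libraries above and below it. Means were 1.61 ± 1.08 CPM in LIN28A knockout, 1.05 ± 0.61 CPM in the LIN28B-labelled libraries and 0.813 ± 0.031 CPM in control (SD, n = 3 each), with no neighbours apart beyond their spread. The log2 fold change of KITLG was 0.99 ± 0.66 in LIN28A knockout (95% interval −0.49 to 2.47; edgeR adjusted p = 0.646) and 0.37 ± 0.67 in the LIN28B-labelled libraries (95% interval −1.12 to 1.86; edgeR adjusted p = 0.885). In LIN28A knockout it split as CXCL12 did, at 3.06, 2.47 and 0.462 times the same-numbered control. Its log2 fold change there was 1.45 without LIN28A knockout replicate 3 and 0.60 without LIN28A knockout replicate 1, with no call in either fit. Without LIN28B-labelled replicate 1 the value in the LIN28B-labelled libraries turned to −0.14. Both intervals include 0. The coefficient of variation between libraries was 66.9% in LIN28A knockout, 58.2% in the LIN28B-labelled libraries and 3.86% in control. The control libraries held 25, 26 and 22 counts, closer together than counting error alone gives on average. Their narrow band is therefore no measure of how steady KITLG is in control.

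The list of KIT signalling held 32 genes, of which 30 were tested. In LIN28A knockout 23 lay above and 7 below control (median log2 fold change 0.17), and in the LIN28B-labelled libraries 13 lay above and 17 below, with a median of −0.04, against 0.02 and −0.00 over all tested genes. Of all tested genes, 8155 lay above and 7320 below control in LIN28A knockout, and 7709 and 7766 in the LIN28B-labelled libraries. EdgeR called 0 of the 30 in either comparison, against 3 in each at an unadjusted p under 0.05 (all tested genes: 10.6% and 8.87%). DESeq2 called 1 in LIN28A knockout, LYN, a kinase of the SRC family that binds active KIT. LYN measured 19.2, 19.4 and 21.2 CPM in LIN28A knockout, 17.2, 19.0 and 16.3 CPM in the LIN28B-labelled libraries and 14.8, 12.7 and 12.3 CPM in control, above every control library in both knockouts. Its log2 fold changes were 0.59 ± 0.15 in LIN28A knockout (edgeR adjusted p = 0.211, DESeq2 adjusted p = 0.00537) and 0.40 ± 0.15 in the LIN28B-labelled libraries (edgeR adjusted p = 0.509). All LIN28A knockout libraries lay above all control libraries for 1270 of 15475 tested genes, and all LIN28B-labelled libraries did so for 1790. PIK3CD, a catalytic subunit of phosphoinositide kinase, was at 0.38 ± 0.14 in LIN28A knockout (edgeR adjusted p = 0.380), and the adaptor GRB2 at −0.27 ± 0.11 (edgeR adjusted p = 0.423). In the LIN28B-labelled libraries the regulatory subunit PIK3R1 was at 1.00 ± 0.39 and the RAS activator SOS1 at 0.37 ± 0.15 (edgeR adjusted p = 0.527 and 0.542). Of the receptors related to KIT, 4 of 5 were tested and 0 called in either comparison. PDGFRA averaged 0.731 ± 0.264 CPM in LIN28A knockout, 1.73 ± 0.40 CPM in the LIN28B-labelled libraries and 1.15 ± 0.29 CPM in control. PDGFRB averaged 20.2 ± 6.63 CPM in LIN28A knockout, 22.6 ± 0.35 CPM in the LIN28B-labelled libraries and 20.8 ± 1.27 CPM in control. FLT3 was under 0.5 CPM on average in each group.

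**Figure D4:**
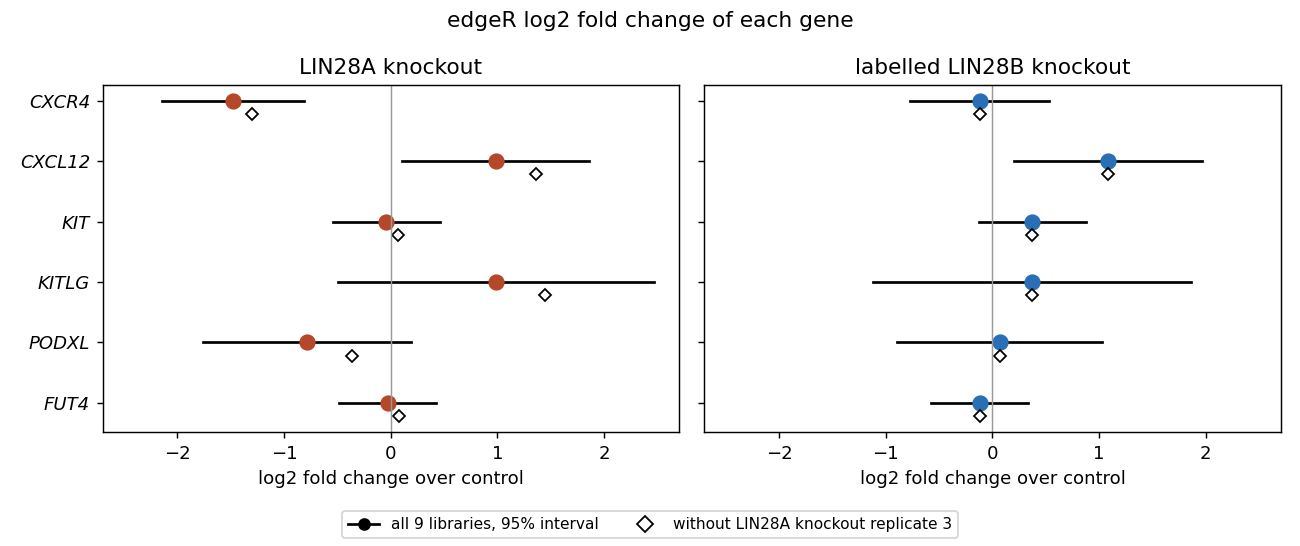
edgeR log2 fold change over control (horizontal axis) of each gene in LIN28A knockout (left) and in the LIN28B-labelled libraries (right); filled points and lines give the value and 95% interval from all 9 libraries, open diamonds the value without LIN28A knockout replicate 3. CXCR4 in LIN28A knockout (−1.48, interval −2.15 to −0.81) is furthest from 0 among the filled points. Among the open diamonds of LIN28A knockout, KITLG (1.45) and CXCL12 (1.36) lie further from 0 than CXCR4 (−1.30), and PODXL is at −0.37, against −0.79 with all libraries.

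PODXL (ENSGALG00000006409), which encodes podocalyxin, a heavily sialylated surface mucin, measured 29.2, 27.5 and 6.86 CPM in LIN28A knockout, 33.7, 29.4 and 51.9 CPM in the LIN28B-labelled libraries and 37.8, 34.1 and 37.7 CPM in control. Every LIN28A knockout library lay below every control library, the other member with this pattern. Replicate 3 of LIN28A knockout was far below replicates 1 and 2, while replicate 3 of the LIN28B-labelled libraries was the highest of all 9. The means were 21.2 ± 12.4 CPM in LIN28A knockout, 38.3 ± 11.9 CPM in the LIN28B-labelled libraries and 36.6 ± 2.10 CPM in control (SD, n = 3 each).

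In LIN28A knockout PODXL stood at 77.2%, 80.6% and 18.2% of the paired control libraries, lowest in replicate 3. The log2 fold change was −0.79 ± 0.44 (95% interval −1.76 to 0.19) and did not pass edgeR (adjusted p = 0.572) or, in the authors' deposited table, DESeq2 (−0.78 ± 0.46, adjusted p = 0.586). Without LIN28A knockout replicate 3 it was −0.37 (edgeR adjusted p = 0.420), so 1 library sets most of its size. With replicates 1 and 2 of every group it was called lower (−0.34 ± 0.10; edgeR adjusted p = 0.00712), in a fit that called 30.1% of all genes. In the LIN28B-labelled libraries the log2 fold change was 0.07 ± 0.43 (95% interval −0.90 to 1.03; edgeR adjusted p = 0.973), and it turned to −0.21 without LIN28B-labelled replicate 3. LIN28A knockout against the LIN28B-labelled libraries gave a log2 difference of −0.85 ± 0.44 for PODXL (edgeR adjusted p = 0.327).

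Among 15 listed sialomucins and the cytoskeletal partners that podocalyxin binds through adaptors, 9 were tested and edgeR called 0 in either comparison, against 3 and 0 at an unadjusted p under 0.05 (all tested genes: 10.6% and 8.87%). In LIN28A knockout 6 lay above and 3 below control (median log2 fold change 0.07), and in the LIN28B-labelled libraries 4 above and 5 below (median −0.07). SLC9A3R2, an adaptor that ties podocalyxin to ezrin, measured 24.5, 22.1 and 21.6 CPM in LIN28A knockout, 14.5, 15.4 and 12.1 CPM in the LIN28B-labelled libraries and 15.5, 15.6 and 12.8 CPM in control, so all LIN28A knockout libraries were above all others. Its log2 fold change in LIN28A knockout was 0.63 ± 0.16, not called by edgeR (adjusted p = 0.211) and called by DESeq2 (adjusted p = 0.00764). All LIN28A knockout libraries lay above all control libraries for 1270 of 15475 tested genes. The related adaptor SLC9A3R1 was at 0.21 ± 0.12 in LIN28A knockout and −0.27 ± 0.12 in the LIN28B-labelled libraries (edgeR adjusted p = 0.587 and 0.565). The sialomucin CD164 and the cytoskeletal linker RDX were at −0.19 ± 0.14 and −0.32 ± 0.26 in the LIN28B-labelled libraries (edgeR adjusted p = 0.726 and 0.738). PODXL2, the closest relative of PODXL, measured 43.2, 47.3 and 15.0 CPM in LIN28A knockout, 53.4, 67.2 and 32.2 CPM in the LIN28B-labelled libraries and 40.0, 38.1 and 32.9 CPM in control. Like PODXL it was lowest in replicate 3 of LIN28A knockout. CD34, the third of this family, averaged 1.23 ± 0.51 CPM in LIN28A knockout, 0.284 ± 0.246 CPM in the LIN28B-labelled libraries and 0.267 ± 0.254 CPM in control (edgeR adjusted p = 0.461 for LIN28A knockout against control).

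FUT4 (ENSGALG00000022718), the enzyme of the Lewis X epitope among the 6 genes, measured 8.20, 8.44 and 6.51 CPM in LIN28A knockout, 7.85, 7.84 and 6.05 CPM in the LIN28B-labelled libraries and 7.38, 8.27 and 7.95 CPM in control. The groups overlapped in both comparisons. The means were 7.72 ± 1.05 CPM in LIN28A knockout, 7.25 ± 1.04 CPM in the LIN28B-labelled libraries and 7.87 ± 0.45 CPM in control (SD, n = 3 each), with no neighbours apart beyond their spread. The log2 fold change was −0.03 ± 0.20 in LIN28A knockout (95% interval −0.48 to 0.42; edgeR adjusted p = 0.977) and −0.12 ± 0.20 in the LIN28B-labelled libraries (95% interval −0.57 to 0.33; edgeR adjusted p = 0.880). Neither interval held a change of 1 on the log2 scale. The sign in LIN28A knockout turned without control replicate 2 (0.0096) and without LIN28A knockout replicate 3 (0.080).

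The fucosylation list held 28 genes, of which 22 were tested: 11 lay above and 11 below control in each comparison, with medians of −0.00 in LIN28A knockout and 0.01 in the LIN28B-labelled libraries. EdgeR called 0 of the 22 in either comparison, with 3 in each below an unadjusted p of 0.05 (all tested genes: 10.6% and 8.87%), while DESeq2 called 0. FUT9, the other main maker of Lewis X, measured 33.1, 31.8 and 29.1 CPM in LIN28A knockout, 43.1, 44.5 and 48.0 CPM in the LIN28B-labelled libraries and 38.5, 37.9 and 39.1 CPM in control. The 3 groups did not overlap, with LIN28A knockout lowest and the LIN28B-labelled libraries highest. Of all tested genes, 9.78% had LIN28A knockout wholly below control, and 11.6% had the LIN28B-labelled libraries wholly above it. LIN28A knockout lay wholly below the LIN28B-labelled libraries for 1952 of 15475. The log2 fold changes of FUT9 were −0.30 ± 0.11 and 0.23 ± 0.11 (edgeR adjusted p = 0.387 and 0.595). The difference of LIN28A minus LIN28B-labelled libraries, −0.53 ± 0.11, missed the threshold too (edgeR adjusted p = 0.0707) and passed DESeq2 (adjusted p = 3.19e-04). In this comparison DESeq2 called 577 of the 15475 tested genes higher and 427 lower, and edgeR called 0.517%. B3GNT5, which starts the lactosyl chains that carry Lewis X, was at −0.45 ± 0.14 in LIN28A knockout (edgeR adjusted p = 0.299). B4GALT1, a galactosyltransferase that extends such chains, was at 0.41 ± 0.17 in LIN28A knockout and 0.59 ± 0.17 in the LIN28B-labelled libraries (edgeR adjusted p = 0.423 and 0.457). FUT8, the core fucosyltransferase, was at 0.27 ± 0.12 and FUT11 at −0.41 ± 0.16 in the LIN28B-labelled libraries (edgeR adjusted p = 0.560 and 0.526). FUT10 was at 0.69 ± 0.49 in LIN28A knockout and 0.73 ± 0.49 in the LIN28B-labelled libraries (edgeR adjusted p = 0.660 and 0.686).

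The genes whose log2 CPM followed each member most closely over the 9 libraries were taken from up to 9203 candidates that had a symbol and averaged at least 3 on the log2 CPM scale. The correlations are a description of 9 libraries in 3 groups, which share replicate 3's distance from replicates 1 and 2. CXCR4 was followed by SLC25A3, the mitochondrial phosphate carrier (Pearson r = 0.980), by UQCRQ, a subunit of respiratory complex III (0.975), and by WBP11, a splicing factor (0.971). For CXCL12 these were the zinc transporter SLC39A6 (0.977), the receptor phosphatase PTPRB (0.971) and XPOT, an exporter of transfer RNA (0.962), and for KIT they were LY6E (0.992), PDLIM1 (0.981) and CCNI2 (0.969). PODXL was followed by the RNA-binding protein gene SFPQ (0.991), the transferrin receptor TFRC (0.987) and RBMXL1 (0.987). KITLG and FUT4 had looser companions, with SLC25A4 (0.919), SCX (0.904) and KCNJ3 (0.893) for KITLG and KANK4 (0.890), C4orf48 (0.879) and SREBF1 (0.878) for FUT4. Among the members themselves, CXCR4 and its ligand CXCL12 had r = −0.20, and KIT and its ligand KITLG had r = 0.10. The highest value between members was 0.69, for CXCL12 with KITLG, both of which were at their lowest in replicate 3 of LIN28A knockout.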

How the data were processed

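Per the labels, each library has 1 deposited table of whole-number counts per Ensembl gene. The submitters' processing notes name edgeR 3.38.4, DESeq2 1.36.0, featureCounts 2.0.3 and HISAT2 2.1.0, and the builds GRCg6a and galGal6, with no role or order. The deposited result tables hold, per the file headers, the authors' log2 fold changes with standard errors and their p-values. The strand setting and the gene annotation used for counting are not stated in the labels, and overlapping genes may share reads. No sequence or matching coordinates were at hand.

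The main test was edgeR 4.0.16's quasi-likelihood F test (R 4.3.3; TMM factors, filterByExpr, 1 model of the 9 libraries with group as its term, Benjamini-Hochberg adjusted p under 0.05), tested on simulated data; 15475 genes passed. The simulated libraries varied independently and held no shift of replicate 3, so they do not show how the test fares with one. DESeq2 1.42.0, other scalings, filters, the replicate block and left-out libraries were alternatives. Standard errors come from the F statistic, and 95% intervals are per gene. CPM are TMM-scaled. The named genes are the 6 members, LIN28A, LIN28B, close relatives, per list the called members or else the 3 smallest p in each comparison, and the 3 best-correlated genes per member. One gene of the sialomucin list that this rule names is not reported here. CDH5 and COL1A2 were chosen after their values were seen. Members and lists (chemokine, KIT, related receptors, sialomucins, fucosylation, other migration receptors, and germ cell, fibroblast, endothelial, erythroid and leukocyte markers) were chosen with earlier results of these data known.

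Whether replicate numbers pair libraries was checked by correlating deviations from group means over 10151 genes. Same-numbered libraries gave r = 0.403, 0.258 and 0.392 between LIN28A knockout and control and 0.394, 0.426 and 0.554 between the LIN28B-labelled libraries and control, all above 0.1, so these were taken as pairs. The check separates replicate 3 from the others and does not distinguish replicate 1 from replicate 2. Between the knockouts r was 0.130, 0.088 and 0.125, and no pairing was taken. The replicate block was still fitted to all libraries at once, with replicate terms shared by all groups.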

Additional observations from a re-analysis of the deposited data

How the results depend on the processing

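In LIN28A knockout against control, edgeR's 1 called gene became 381 with DESeq2, 5 with no filter, 13 with the replicate block, 0 with only the groups compared, 4724 with replicates 1 and 2 only, 1863 with the block and LIN28A knockout replicate 3 left out (an alternative added after the data were seen), and 0 to 453 with 1 library left out. In the LIN28B-labelled libraries against control, 2 became 135 with DESeq2, 24 with the block, 1 with only the groups compared, 4898 with replicates 1 and 2, 2579 with the block and that library left out, and 0 to 166 with 1 library left out. LIN28A against the LIN28B-labelled libraries gave 80, 1004 with DESeq2, 136 with no filter, 890 with the block, 9 with only the groups compared, 6196 with replicates 1 and 2, 3157 with the block and that library left out, and 0 to 474 with 1 library left out.

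CXCR4 in LIN28A knockout kept its sign in 18 of 18 alternatives. It was called at −1.48 with DESeq2, −1.47 with the replicate block, −1.50 with replicates 1 and 2 and −1.53 with the block and LIN28A knockout replicate 3 left out, and ranged from −1.68 to −1.30 with 1 library left out. With replicates 1 and 2, and with the block and that library left out, CXCL12 was called at 1.57 and 1.58 in LIN28A knockout and at 1.07 and 1.08 in the LIN28B-labelled libraries. With 1 library left out it ranged from 0.74 to 1.36 and from 0.86 to 1.30. Replicates 1 and 2 alone gave calls of KITLG (1.46) and PODXL (−0.34) in LIN28A knockout and of KIT (0.52) in the LIN28B-labelled libraries, and turned the sign of PODXL (−0.19) and FUT4 (0.0016) in the LIN28B-labelled libraries and of FUT4 in LIN28A knockout (0.088, and 0.024 with the block and that library left out). In LIN28A knockout the left-out ranges were −0.14 to 0.067 for KIT, 0.60 to 1.45 for KITLG, −1.09 to −0.37 for PODXL and −0.10 to 0.080 for FUT4. In the LIN28B-labelled libraries they were −0.32 to 0.12 for CXCR4, 0.19 to 0.61 for KIT, −0.14 to 0.72 for KITLG, −0.21 to 0.23 for PODXL and −0.18 to −0.0055 for FUT4. Between the knockouts CXCL12 turned to 0.50 with replicates 1 and 2 and with the block and that library left out, and ranged from −0.34 to 0.28 with 1 library left out, while FUT4 ranged from −0.023 to 0.20. The targeted genes in the LIN28B-labelled libraries ranged from −0.055 to 0.38 (LIN28A) and from −0.054 to 0.17 (LIN28B). Between the knockouts, where numbers were not taken as pairs, the block gave CXCR4 −1.34 (edgeR adjusted p = 0.00450). The block changed no other member's call. The causes of these shifts were not tested; replicates 1 and 2 lie close together, and fits of them alone rest on that narrow spread. KITLG had the fewest counts of the 6 genes, 11 to 79 per library.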

Other observations

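Other receptors and adhesion molecules of migrating germ cells lay mostly above control in the libraries labelled LIN28B knockout. Of 17 listed and tested, 14 lay above and 3 below, with a median log2 fold change of 0.41, against −0.00 over all tested genes, and edgeR called 0 of them (4 at an unadjusted p under 0.05; DESeq2 0). In LIN28A knockout 11 lay above and 6 below (median 0.11), with 0 called (4 at an unadjusted p under 0.05; DESeq2 0). Of all 15475 tested genes, 7709 lay above and 7766 below control in the LIN28B-labelled libraries, and 8155 and 7320 in LIN28A knockout. An unadjusted edgeR p under 0.05 was held by 8.87% and 10.6% of them. This list was chosen with earlier results of these data known. EPCAM, an epithelial adhesion molecule also present on germ cells, was at 977, 920 and 835 CPM in the LIN28B-labelled libraries and 703, 744 and 608 CPM in control, 0.41 ± 0.11 on the log2 scale (edgeR adjusted p = 0.410). ROR2, a WNT5A receptor needed by migrating mouse germ cells, was at 81.0, 81.7 and 48.9 CPM in the LIN28B-labelled libraries and 44.1, 39.3 and 47.0 CPM in control (0.70 ± 0.19; edgeR adjusted p = 0.410).

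The cadherins lay on opposite sides of control, and neither passed edgeR. CDH1 measured 75.4, 75.0 and 63.3 CPM in LIN28A knockout, 101, 107 and 46.4 CPM in the LIN28B-labelled libraries and 49.3, 48.1 and 28.4 CPM in control (log2 fold changes 0.77 ± 0.30 and 1.01 ± 0.30; edgeR adjusted p = 0.412 and 0.470). CDH2 measured 146, 152 and 233 CPM in LIN28A knockout, 171, 162 and 363 CPM in the LIN28B-labelled libraries and 265, 256 and 470 CPM in control (−0.90 ± 0.35 and −0.51 ± 0.35; edgeR adjusted p = 0.405 and 0.693). GFRA2, a receptor of the GDNF family, split in LIN28A knockout as CXCL12 and KITLG did, at 29.3, 24.0 and 5.51 CPM against 8.79, 8.53 and 7.69 CPM in control. Its edgeR adjusted p was 0.396 on all libraries. Without LIN28A knockout replicate 3, the library where GFRA2 lay below control, it was 0.00296. That fit called 2.86% of all genes.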
